A study of Mus musculus with 96 samples.

Results

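The Reg genes of the mouse were followed through 24 weeks of high-fat feeding in isolated islets. The 6 members, Reg1, Reg2, Reg3a, Reg3b, Reg3d and Reg3g, were taken by symbol from the 21990 genes of the deposited expression table, of which 20155 carried values. Male C57BL/6N mice, bought at 4 weeks of age, ate either CD, the chow LabDiet 5001 with 13.5% fat, or HFD, the diet D12492 with 60% fat, until they were sampled after 4, 8, 12, 16, 20 or 24 weeks. Islets and liver were taken from the same 48 mice, 4 per diet at each week and none sampled more than once, which gave 96 RNA-seq libraries. Islets had been freed with collagenase P, separated on a Histopaque gradient and hand-picked, so they can carry attached exocrine tissue. No genetic change was named for either group.

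Reg genes encode small secreted proteins with a C-type lectin fold. Reg1 and Reg2 were first studied in regenerating islets, and Reg1 protein is also a major secretory product of the acinar cell, where it is known as lithostathine or pancreatic stone protein. Reg3b is the pancreatitis-associated protein, which acinar cells make in large amounts when the pancreas is injured, and Reg3a is a close relative. Reg3g is best known as a bactericidal lectin of the gut epithelium, and Reg3d belongs to the branch of the islet neogenesis-associated protein. Cytokines of the IL-6 and IL-22 families induce several Reg genes through STAT3, and Extl3 has been put forward as a Reg receptor.

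All 6 members lie in a single cluster of 98.0 kb on chromosome 6, from 78370885 to 78468874 in the RefSeq annotation of GRCm38, and hold the 6 protein-coding genes found there. Reg3d and Reg3g are read from the minus strand and the others from the plus strand. The coding sequences in GENCODE vM21 span 6 exons and run from 495 bases in Reg1 to 525 in Reg3a, Reg3b and Reg3d. Reg1 and Reg2 were the most alike, with 82.6% of 495 aligned coding bases identical, followed by Reg3a with Reg3b at 76.5% and Reg3b with Reg3g at 76.4%. No stretch of 50 bases was shared between the transcripts of any pair, and the longest exact run was 35 bases, in Reg3b and Reg3g. One gene model limits what can be read from single members. The deposited model of Reg1 spans 54586 bases, from 78374497 to 78429082, because 2 of its 3 transcripts were assembled anew from reads, and it encloses 3 other members, Reg3d on the opposite strand, Reg3a and Reg2. The library preparation was not described as strand-specific, so part of the assignment of reads between Reg1 and the enclosed members is uncertain.

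The 250 bases before each start site are given for all 6 members, from RefSeq promoters of GRCm38.p6 and written along the gene's own strand. The regions are chr6:78425733-78425982 for Reg1, chr6:78404905-78405154 for Reg2, chr6:78380459-78380708 for Reg3a, chr6:78370635-78370884 for Reg3b, chr6:78378866-78379115 (minus strand) for Reg3d and chr6:78468875-78469124 (minus strand) for Reg3g. Capitals mark letters of 4 motifs looked for on both strands, the STAT letters TTCNNNGAA, the E-box CACCTG and TC-box TTTCCC of the acinar factor PTF1, and the TATA letters TATAAA.
Reg1: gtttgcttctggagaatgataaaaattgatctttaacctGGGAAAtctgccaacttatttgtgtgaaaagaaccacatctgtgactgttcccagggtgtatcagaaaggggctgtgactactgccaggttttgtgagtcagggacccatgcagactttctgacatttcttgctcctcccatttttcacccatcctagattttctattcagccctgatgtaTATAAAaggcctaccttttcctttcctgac
Reg2: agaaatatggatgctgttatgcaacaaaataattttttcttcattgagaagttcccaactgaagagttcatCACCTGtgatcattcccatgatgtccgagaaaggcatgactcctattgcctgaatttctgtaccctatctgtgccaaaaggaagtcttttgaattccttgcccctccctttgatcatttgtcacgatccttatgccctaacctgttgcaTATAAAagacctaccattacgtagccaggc
Reg3a: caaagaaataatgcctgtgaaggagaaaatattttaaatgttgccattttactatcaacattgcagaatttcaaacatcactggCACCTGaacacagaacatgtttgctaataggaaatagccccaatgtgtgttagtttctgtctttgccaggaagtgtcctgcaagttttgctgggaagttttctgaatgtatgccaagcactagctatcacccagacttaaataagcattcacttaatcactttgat
Reg3b: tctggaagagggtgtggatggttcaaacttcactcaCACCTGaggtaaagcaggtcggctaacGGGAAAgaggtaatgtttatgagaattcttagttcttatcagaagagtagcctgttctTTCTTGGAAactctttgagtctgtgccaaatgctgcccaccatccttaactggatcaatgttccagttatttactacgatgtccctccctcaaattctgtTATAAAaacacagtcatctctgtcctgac
Reg3d: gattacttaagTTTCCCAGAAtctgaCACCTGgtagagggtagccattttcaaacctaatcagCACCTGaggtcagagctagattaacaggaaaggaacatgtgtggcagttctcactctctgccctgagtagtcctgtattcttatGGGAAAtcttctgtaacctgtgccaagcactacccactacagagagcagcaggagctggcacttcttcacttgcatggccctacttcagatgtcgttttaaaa
Reg3g: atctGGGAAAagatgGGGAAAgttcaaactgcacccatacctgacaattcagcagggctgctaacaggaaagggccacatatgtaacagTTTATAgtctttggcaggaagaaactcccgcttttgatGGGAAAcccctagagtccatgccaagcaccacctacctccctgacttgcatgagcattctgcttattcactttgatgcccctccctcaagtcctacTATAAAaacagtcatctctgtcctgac

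The E-box letters stood before Reg2, Reg3a, Reg3b and Reg3d, 4 of the 6 members, against 17.2% of 32851 promoters of the same length. The TC-box letters stood before Reg1, Reg3b, Reg3d and Reg3g, against 21.9% of promoters, and the TATA letters before Reg1, Reg2, Reg3b and Reg3g, against 12.4%. The STAT letters occurred before Reg3b and Reg3d, against 7.02% of promoters, and in Reg3d they overlap the TC-box letters. A match describes the letters of this window only, and a link between the letters and the levels of the members was not tested.

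The islet libraries had summed FPKM of 892097 to 1278652 and 11059 to 11941 genes at 1 FPKM or more. The beta cell markers Ins1 and Ins2 had medians of 192440 and 494724 FPKM. Acinar transcripts were present in every islet library. All 32 acinar markers on a list without Reg genes were above 0 in all 48 libraries. Their summed level ran from 5627 to 192051 FPKM, or 0.506% to 18.5% of the summed FPKM of a library. The table holds no read counts, so no counting error can be attached to a value.

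Levels are given as FPKM, which is scaled to transcript length so that genes can be compared. Levels, shares and ratios of Reg1 beside Reg2, Reg3a and Reg3d are limited by the uncertain assignment of reads described above. Reg1 was the most abundant member, with a median of 497 FPKM over the 48 islet libraries (70.2 to 2232). Reg2 followed at 29.2 FPKM (0.990 to 1365), Reg3b at 12.6 (0.6 to 637) and Reg3d at 9.10 (1.26 to 108). Reg3a and Reg3g were low, at medians of 0.915 and 0.695 FPKM, and reached 1 FPKM in 22 and 20 of the 48 libraries. Reg1 supplied a median of 88.4% of the summed Reg level of a library, and as little as 23.2% in the islets of HFD mouse HFD614 at week 24. Reg4, the family member on chromosome 3, was listed at 0 in 39 of the 48 islet libraries.

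The spread between mice of one group was very large for these genes. The SD of log2(FPKM + 1) within diet and week groups was 0.74 for Reg1, 0.84 for Reg3d, 1.20 for Reg3g, 1.34 for Reg3a, 1.43 for Reg2 and 1.52 for Reg3b. The median over 11643 genes with a mean of at least 1 FPKM was 0.13, and all 6 members lay above the 99.4th percentile. The acinar markers had a median SD of 0.74. In the plot of levels by week, the 4 mice of a group are often spread over several log2 units for Reg2, Reg3a and Reg3b.

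**Figure D1:**
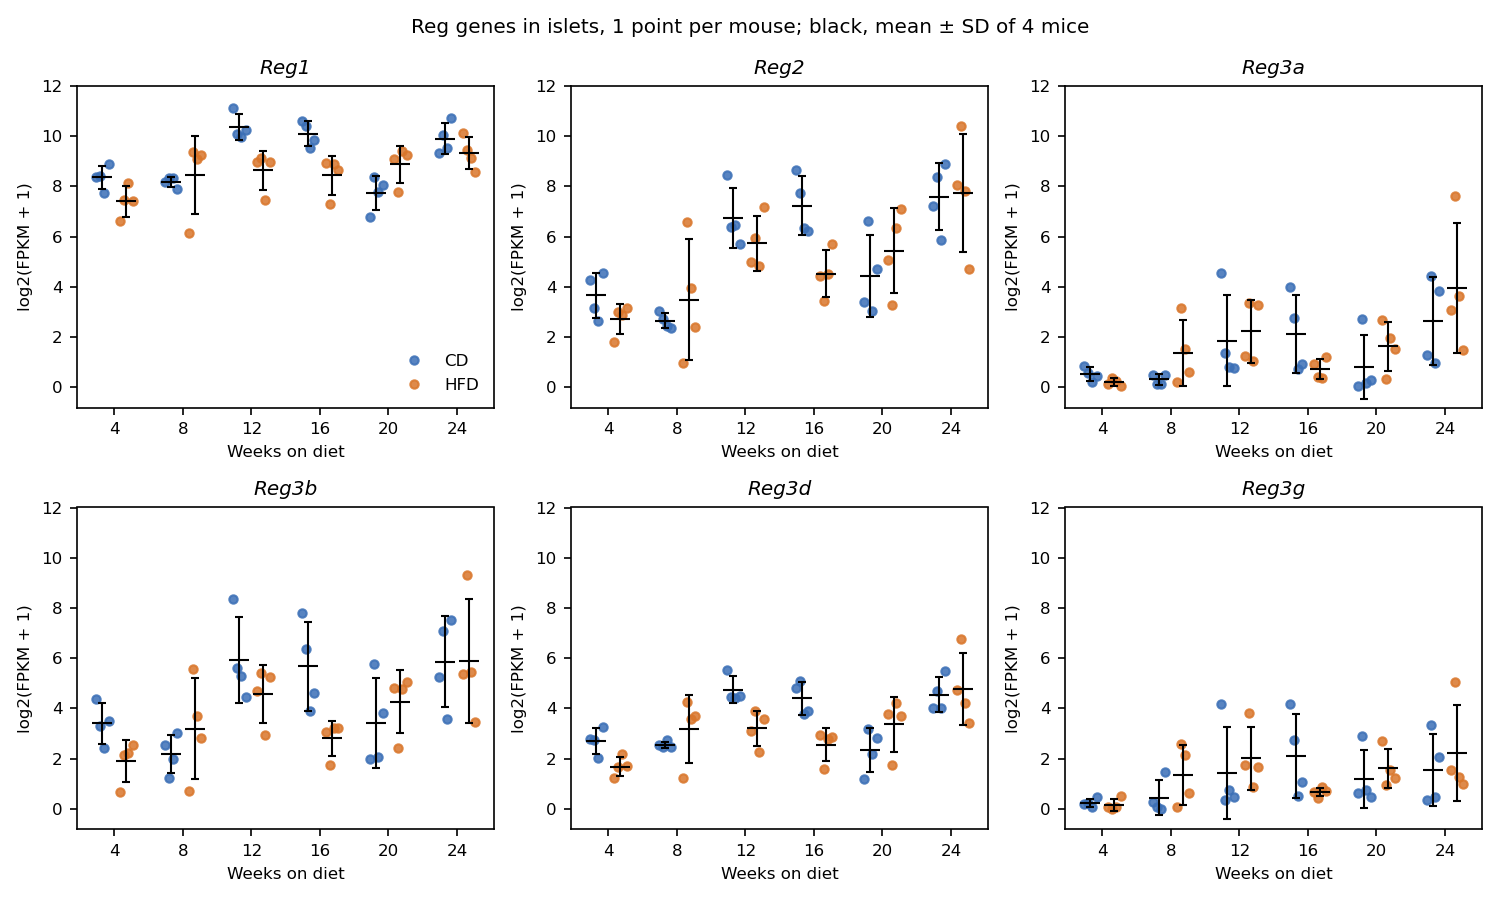
Level of each Reg gene in islets as log2(FPKM + 1) against weeks on diet, with 1 point per mouse, CD in blue, HFD in orange, and black bars for the mean ± SD of 4 mice. Reg1 lies highest in all groups, and the CD points lie above the HFD points for Reg1 and Reg3d at weeks 12 and 16.

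HFD and CD islets were compared at each week to ask when feeding altered the Reg genes. No member passed the test in any week (limma, adjusted p under 0.05 over all genes tested). This count of 0 rested on the settings at 2 weeks, with up to 2 members passing at week 12 and up to 4 at week 16 over 8 alternatives. The share of all genes passing under those alternatives was not counted. The direction of the difference varied with the week. The log2 fold changes of the tested members were all below 0 at weeks 4 and 16, and all above 0 at weeks 8 and 20. With the mean log2 level of 32 acinar markers (the acinar score) in the fit, 5 of 6 turned below 0 at week 20 (all but Reg1) and Reg1 turned above 0 at week 16, and without mouse HFD212 Reg1 and Reg2 turned below 0 at week 8. Over all genes, 0% passed at week 4, with 5.27% in week 8, 4.53% in week 12, 8.45% in week 16, 4.74% in week 20 and 8.3% in week 24. At an unadjusted p under 0.05, 3 of 4 tested members passed at week 4 and 4 of 4 at week 16, followed by 2 of 6 in week 12, 1 of 6 in week 20 and none of 4 and 6 in weeks 8 and 24. Over all genes, 854 of 11569 passed at this level at week 4, 3362 of 11636 at week 8 and 1968 of 11286 at week 12. For the later weeks the numbers were 2717 of 11691 (week 16), 3004 of 11704 (week 20) and 2734 of 11709 (week 24). Reg3a and Reg3g fell below the filter of 1 FPKM in 4 of 8 libraries at weeks 4, 8 and 16 and were not tested there.

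Reg1, the acinar secretory member, had its most separated values at weeks 12 and 16. At week 12 it read 2232, 1092, 1015 and 1216 FPKM in the CD mice and 506.96, 559, 176 and 506.7 FPKM in the HFD mice. At week 16 the CD values were 1569, 1360.4, 733 and 926 FPKM and the HFD values 487, 157, 477 and 406 FPKM. Every HFD mouse was below every CD mouse at both weeks. The share of all genes separated in this way was not counted, here or for the members below. The log2 fold change of Reg1 was -1.72 at week 12 (SE 0.46, limma adjusted p = 0.12) and -1.65 at week 16 (SE 0.45, adjusted p = 0.085). Neither passed. With all 12 groups in a single fit the same differences had adjusted p = 0.029 and 0.043 (limma), within ranges of 0.0074 to 0.29 and 0.012 to 0.88 over 8 alternatives.

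At the other weeks Reg1 overlapped between diets. At week 4 it was at 215 to 477 FPKM in CD and 98.4 to 281 FPKM in HFD, with a log2 fold change of -0.94 (SE 0.36, limma adjusted p = 0.67). At week 8 the 4 CD mice lay between 237 and 325 FPKM, and the HFD mice at 70.2, 655, 548 and 607 FPKM. Mouse HFD211 was thus below every CD mouse and the other 3 above all of them, so that the log2 fold change was 0.28 (SE 0.76, limma adjusted p = 0.83) with this mouse and 1.05 (adjusted p = 0.0039) without it. At week 20 Reg1 read 110.3, 333, 216 and 263 FPKM in CD and 547, 218, 676 and 608.3 FPKM in HFD. The log2 fold change was 1.14 (SE 0.44, limma adjusted p = 0.16), and 1.504 (adjusted p = 0.049) without mouse HFD516, the low HFD value. At week 24 Reg1 covered 644 to 1710 FPKM in CD and 384 to 1106 FPKM in HFD (log2 fold change -0.58, SE 0.44, limma adjusted p = 0.50).

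Reg3d, of the islet neogenesis-associated branch, was separated by diet at the same weeks as Reg1. At week 12 its CD values were 45.6, 21.2, 20.4 and 21.8 FPKM and its HFD values 7.67, 13.8, 3.84 and 11 FPKM. At week 16 they were 27.2, 33.3, 12.8 and 14.1 FPKM against 6.79, 1.98, 5.98 and 6.28 FPKM. The diets did not overlap at either week, as for Reg1. Log2 fold changes were -1.52 (SE 0.43, limma adjusted p = 0.14) and -1.85 (SE 0.45, adjusted p = 0.062). Over 8 alternatives Reg3d passed in 1 at week 12 and in 6 at week 16, with adjusted p from 0.012 to 0.52 and from 0.0064 to 0.88 (limma). At week 4 the difference was -1.02 (SE 0.27, limma adjusted p = 0.60), and at week 20 it was 1.02 (SE 0.63, adjusted p = 0.34). At week 24, where Reg1 stood at -0.58, it was 0.23 (SE 0.79, limma adjusted p = 0.91). At week 8 it was 0.63 (SE 0.66, limma adjusted p = 0.55), and 1.29 (adjusted p = 0.0085) without mouse HFD211.

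Reg2, the paralog of Reg1, and Reg3b, the pancreatitis-associated protein, had their widest diet difference at week 16. Reg2 read 398, 212.9, 80.0 and 73.4 FPKM in the CD islets and 20.9, 9.86, 21.8 and 51.2 FPKM in the HFD islets. Reg3b read 225, 82.3, 13.8 and 23.7 FPKM in CD and 7.39, 2.38, 8.23 and 8.26 FPKM in HFD. Both genes kept all HFD mice below all CD mice in that week. Their log2 fold changes were -2.71 (SE 0.73, limma adjusted p = 0.081) and -2.87 (SE 0.94, adjusted p = 0.13). Reg2 passed in 3 and Reg3b in 1 of 8 alternatives at this week (limma adjusted p from 0.011 to 0.89 and from 0.028 to 0.98). At week 12 both overlapped between diets, with Reg2 at 51.3 to 350.1 FPKM in CD and 27.8 to 146 FPKM in HFD, and Reg3b at 20.8 to 330 and 6.64 to 41.3 FPKM. Their differences there were -1.01 (SE 0.79, limma adjusted p = 0.58) and -1.36 (SE 1.00, adjusted p = 0.56). At week 4 the difference was -0.95 for Reg2 (SE 0.51, limma adjusted p = 0.71) and -1.50 for Reg3b (SE 0.54, adjusted p = 0.67). At weeks 8 and 20 both lay between 0.85 and 1.01, with SEs of 0.99 to 1.19.

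At week 24 the Reg genes of 1 HFD mouse stood apart. Reg2 read 262, 1365, 223 and 25.3 FPKM in HFD, against 147, 336, 57.8 and 480 FPKM in CD. Reg3b read 40.1, 637, 43.0 and 9.92 FPKM in HFD, against 37.3, 136, 10.97 and 182 FPKM in CD. The high value of both genes came from mouse HFD614. The same mouse had 193 FPKM of Reg3a beside 1.84 to 11.5 FPKM in its group, 32.4 FPKM of Reg3g beside 1.00 to 1.97, and 108 FPKM of Reg3d beside 9.65 to 25.6. Its Reg1, at 707 FPKM, lay within the group's range of 384 to 1106. Its summed acinar marker level, 24589 FPKM, was also inside the range of the group, 22622 to 46285. The log2 fold changes of Reg2, Reg3b, Reg3d and Reg3g at week 24 were 0.14, 0.032, 0.23 and 0.68 (limma, smallest adjusted p = 0.79), and -0.75, -1.11, -0.44 and -0.27 without this mouse. For Reg3a the difference was 1.33 (SE 1.54, limma adjusted p = 0.67), and 0.12 without it.

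Reg3a and Reg3g, the low members, had single high mice in several groups. At week 12 Reg3a read 22.6, 1.56, 0.740 and 0.690 FPKM in CD and 1.38, 9.35, 1.05 and 8.66 FPKM in HFD. Reg3g read 17.0, 0.290, 0.710 and 0.380 FPKM in CD and 2.39, 13.0, 0.820 and 2.18 FPKM in HFD. The high CD value of both came from mouse CD304, which also had the highest Reg1 of all islets. The log2 fold changes at week 12 were 0.36 (SE 1.08, limma adjusted p = 0.91) and 0.58 (SE 1.09, adjusted p = 0.85). At week 20 they were 0.82 (SE 0.70, limma adjusted p = 0.49) and 0.42 (SE 0.60, adjusted p = 0.69). In the 16-week islets, which were not tested, Reg3g was at 17.4, 5.65, 0.420 and 1.11 FPKM in CD and at 0.370 to 0.840 FPKM in HFD. At week 4 no mouse of either diet reached 1 FPKM of Reg3a or Reg3g.

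**Figure D2:**
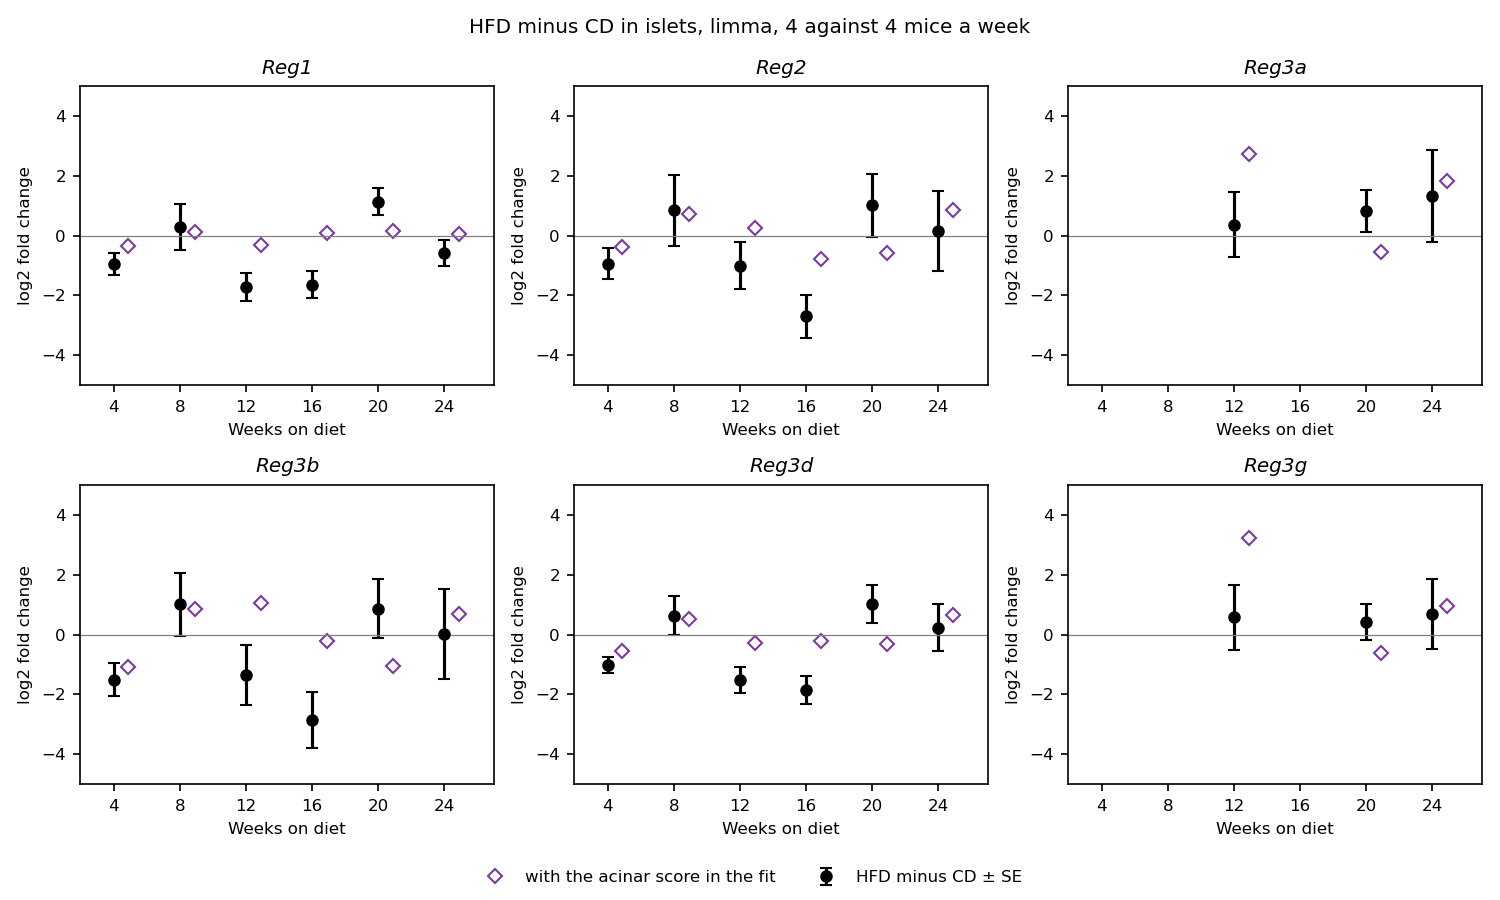
HFD minus CD of each Reg gene in islets as log2 fold change against weeks on diet, with black points and SE bars from limma on 4 against 4 mice, and open diamonds for the same fit with the acinar marker score added. Reg1 lies at -1.72 and -1.65 at weeks 12 and 16, and at -0.33 and 0.098 with the score; Reg3a and Reg3g have points only where they passed the filter.

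Pooling the 6 weeks asked whether any member was shifted by diet as a whole. Reg1 was lower in HFD, with a mean log2 fold change of -0.58 (SE 0.21, limma adjusted p = 0.029). It was the only member of 6 to pass, while 38.6% of the 12378 genes tested passed. In the same test 14 of 32 acinar, 3 of 7 ductal, 6 of 6 alpha cell and 4 of 4 delta cell markers were lower in HFD. Their medians were -0.50, -0.072, -0.995 and -1.09. Of the beta cell markers 5 of 10 were higher and 2 lower. Of the macrophage and neutrophil markers 2 of 7 were higher, and of the T cell and B cell markers 1 of 4 was lower. The other mean effects were -0.44 for Reg2, 0.32 for Reg3a, -0.64 for Reg3b, -0.42 for Reg3d and 0.18 for Reg3g, with SEs of 0.24 to 0.44 (limma, smallest adjusted p = 0.17). Leaving out any 1 library kept Reg1 past the threshold, between -0.63 and -0.45. Adding the acinar score to the fit brought Reg1 to -0.012 (limma adjusted p = 0.94, against 0.0097 to 0.94 over all 6 alternatives).

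Whether the diet difference depended on the week was tested in the same fit. None of the 6 members passed this test (limma, 2 of 6 at an unadjusted p under 0.05), against 4.25% of all genes. The lowest adjusted p were 0.053 for Reg1 and 0.071 for Reg3d (limma). Both passed without mouse HFD211 (adjusted p = 0.0028 and 0.018) and without mouse HFD516 (adjusted p = 0.030 and 0.029). Reg1 also passed without mouse HFD112 or HFD611, and Reg3d without mouse HFD617, with adjusted p of 0.046 to 0.049.

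Levels also differed between weeks within each diet. In CD islets Reg1 (limma adjusted p = 2.3e-05), Reg2 (6.2e-05), Reg3d (0.00021) and Reg3b (0.0045) changed over the 6 weeks, 4 of 6 members, against 77.5% of all genes. With the acinar score in the fit 2 members passed, Reg1 and Reg2, while Reg3d and Reg3b did not (limma adjusted p = 0.066 and 0.10). The share of all genes passing in that fit was not counted. Mean Reg1 in CD was 340.1 ± 107 FPKM at week 4, and 293 ± 40.2, 1389 ± 568, 1147 ± 385, 230.5 ± 93.3 and 1034 ± 482 FPKM at weeks 8 to 24 (SD, n = 4). The mean was lowest at week 20, where the range (110.3 to 333 FPKM) overlapped those of weeks 4 and 8, and weeks 12, 16 and 24, whose ranges overlap, were above these. Reg2 in CD was lowest at week 8 and highest at week 24, with 13.6 ± 8.38 and 5.38 ± 1.36 FPKM at weeks 4 and 8, then 143 ± 139, 191 ± 152, 34.9 ± 42.7 and 255 ± 189 FPKM at weeks 12 to 24 (SD, n = 4).

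In HFD islets 5 of 6 members changed over the weeks, against 83.8% of all genes. They were Reg2 (limma adjusted p = 0.00051), Reg3d (0.00071), Reg3a (0.0093), Reg3b (0.014) and Reg1 (0.030). Mean Reg1 in HFD was 181 ± 75.3 FPKM at week 4 and 470.2 ± 270.2, 437 ± 176, 382 ± 154, 512 ± 202.97 and 689 ± 308.2 at weeks 8 to 24 (SD, n = 4). Without mouse HFD614 only Reg2 and Reg3d passed, and Reg1 also lost its call without HFD112, HFD113, HFD118 or HFD611 (limma adjusted p = 0.053 to 0.13 over these 5 mice). With all mice, Reg1 lost the call under median ratio scaling and Reg3b with the acinar score in the fit (limma adjusted p = 0.063 and 0.069). Each week is a separate set of mice, so age, time on diet and any handling of that week cannot be told apart.

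The acinar markers moved with Reg1 in these comparisons. Their summed level was 80495 to 192051 FPKM in CD and 13054 to 61287 in HFD at week 12, and 44987 to 82340 in CD and 7714 to 24543 in HFD at week 16. At week 20 it was 8056 to 23458 in CD and 17479 to 44542 in HFD. At weeks 12 and 16 all 31 tested acinar markers had log2 fold changes below 0, with a median of -1.60 and -1.52 beside 0.0080 and 0.011 over all genes. Of these, 3 passed at week 12 and 7 at week 16, against 4.53% and 8.45% of all genes. Among them was Amy2a5, pancreatic amylase, at -2.71 and -2.64 (limma adjusted p = 0.033 and 0.021). Amy1, an amylase that the liver makes too, was at -1.99 and -1.77 (limma adjusted p = 0.032 and 0.00016). At week 20, 28 of 31 were above 0, with a median of 1.07, and Sycn, a zymogen granule protein, passed at 2.03 (limma adjusted p = 0.033).

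As a single value per library, the acinar score, the mean log2(FPKM + 1) of the 32 markers, was lower in HFD by 1.55 at week 12 and by 1.52 at week 16. Both gave an exact permutation p = 0.029, the smallest that 4 against 4 mice allow, and an adjusted p of 0.086 over the 6 weeks (two-sided). With this score in the weekly fit Reg1 stood at -0.33, 0.098 and 0.16 in weeks 12, 16 and 20, and no member passed in any week. Because the score itself went with diet, the fit also takes out any diet difference that Reg1 shares with it. In whole islet preparations, fewer cells of a type and less RNA per cell cannot be told apart.

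Across the 48 islet libraries, with the group means of diet and week taken out, all 6 members correlated with the acinar score. Reg1 did so most, with Pearson r = 0.93 and Spearman rho = 0.90 (permutation p = 1e-05 for both, the smallest that 100000 resamples give, adjusted over 6 members 3e-05 and 2e-05). Reg3d followed at r = 0.74 and rho = 0.79 (the same permutation p and adjusted p). For Reg3b r was 0.57 and rho 0.61 (permutation p = 5e-05 and 1e-05, adjusted 0.0001 and 2e-05). Reg2 had r = 0.49 and rho = 0.50 (permutation p = 0.00048 and 0.0004, adjusted 0.00072 and 0.0004). Reg3g had r = 0.47 and rho = 0.58 (permutation p = 0.00108 and 3e-05, adjusted 0.0013 and 4.5e-05). Reg3a had r = 0.40 and rho = 0.51 (permutation p = 0.00446 and 0.0003, adjusted 0.00446 and 0.00036). The permutation shuffled all 48 libraries freely and not within diet and week groups. It allows neither for the group means taken out nor for unequal spread between groups, so the p-values may be too small. The test was run on the 6 members alone, so the share of all genes that correlate with the score is not known.

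Without the 2 libraries farthest from the median of the score, r was 0.89 for Reg1, 0.67 for Reg3d, 0.50 for Reg3b, 0.42 for Reg3g, 0.40 for Reg2 and 0.36 for Reg3a. Within single weeks (8 libraries each) r lay between 0.89 and 0.99 for Reg1. The other members were less even, from 0.35 to 0.93 for Reg3d, 0.29 to 0.81 for Reg3b, 0.35 to 0.68 for Reg2, 0.16 to 0.78 for Reg3g and -0.026 to 0.79 for Reg3a. Week 24 was the lowest week for Reg2, Reg3b, Reg3d and Reg3g. In the scatter of each member against the score, Reg1 forms a narrow band. For Reg3a and Reg3b, HFD614 lies far above the others at a score just below its group mean. For Reg3g, HFD614 and CD304 lie highest and nearly level.

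**Figure D3:**
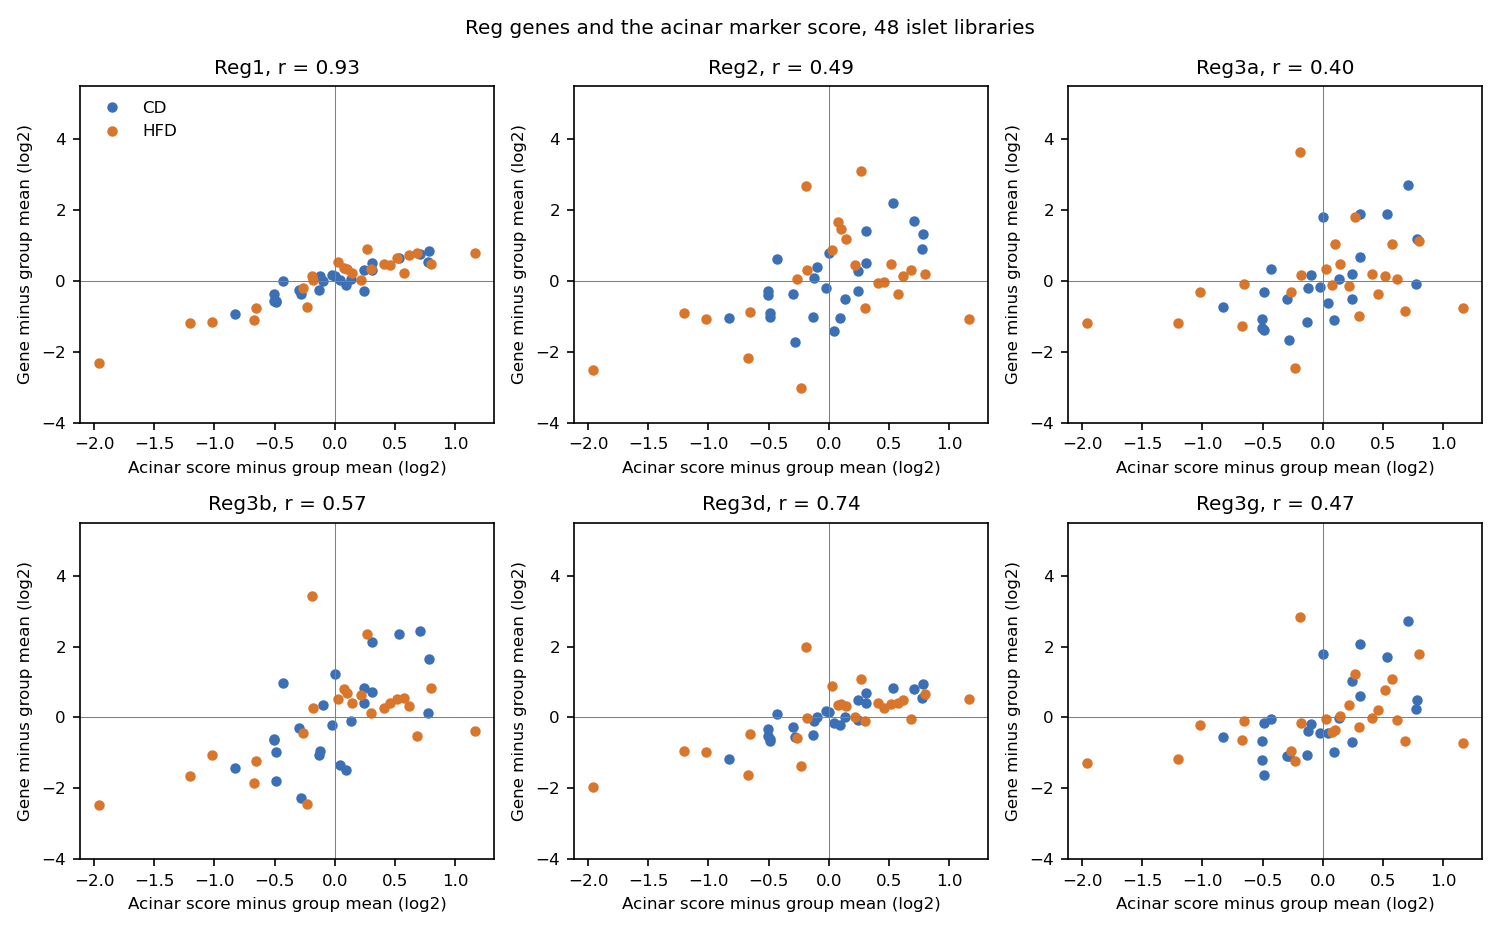
Each Reg gene against the acinar marker score in 48 islet libraries, both as log2 values minus the mean of their diet and week group, CD in blue and HFD in orange. Reg1 follows the score at r = 0.93, and r is 0.40 to 0.74 for the other members.

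The members also varied together, described here over the 48 libraries, which all members share. After subtracting group means, r was highest between Reg3a and Reg3g (0.92), Reg2 and Reg3b (0.91) and Reg3a and Reg3b (0.91). Reg1 and Reg3d stood at 0.86, and the lowest values were between Reg1 and Reg3g (0.51) and Reg1 and Reg3a (0.53). The ratio of Reg1 to Reg3d was above 20 in 47 of 48 libraries, with a median of 52.5 and a highest value of 93.7, and was 6.52 in mouse HFD614. The ratio of Reg1 to Reg2 was far looser, from 0.518 to 140 around a median of 14.2. Every member ran against the beta cell marker score, with r between -0.68 and -0.52, and all values share the library total. With the ductal score r was 0.20 to 0.56, highest for Reg1. Of the ductal markers, 1 of 7 passed at week 12 and 2 of 6 at week 16, all lower in HFD. The list medians were -0.12 and -0.28. Muc1 was the lowest, at -1.41 and -1.43 (limma adjusted p = 0.041 and 0.00019). At week 20 Krt19 was lower in HFD, at -1.03 (limma adjusted p = 0.0024), while 4 of 7 ductal markers were above 0. With the alpha and delta cell scores r stayed between -0.094 and 0.062.

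**Figure D4:**
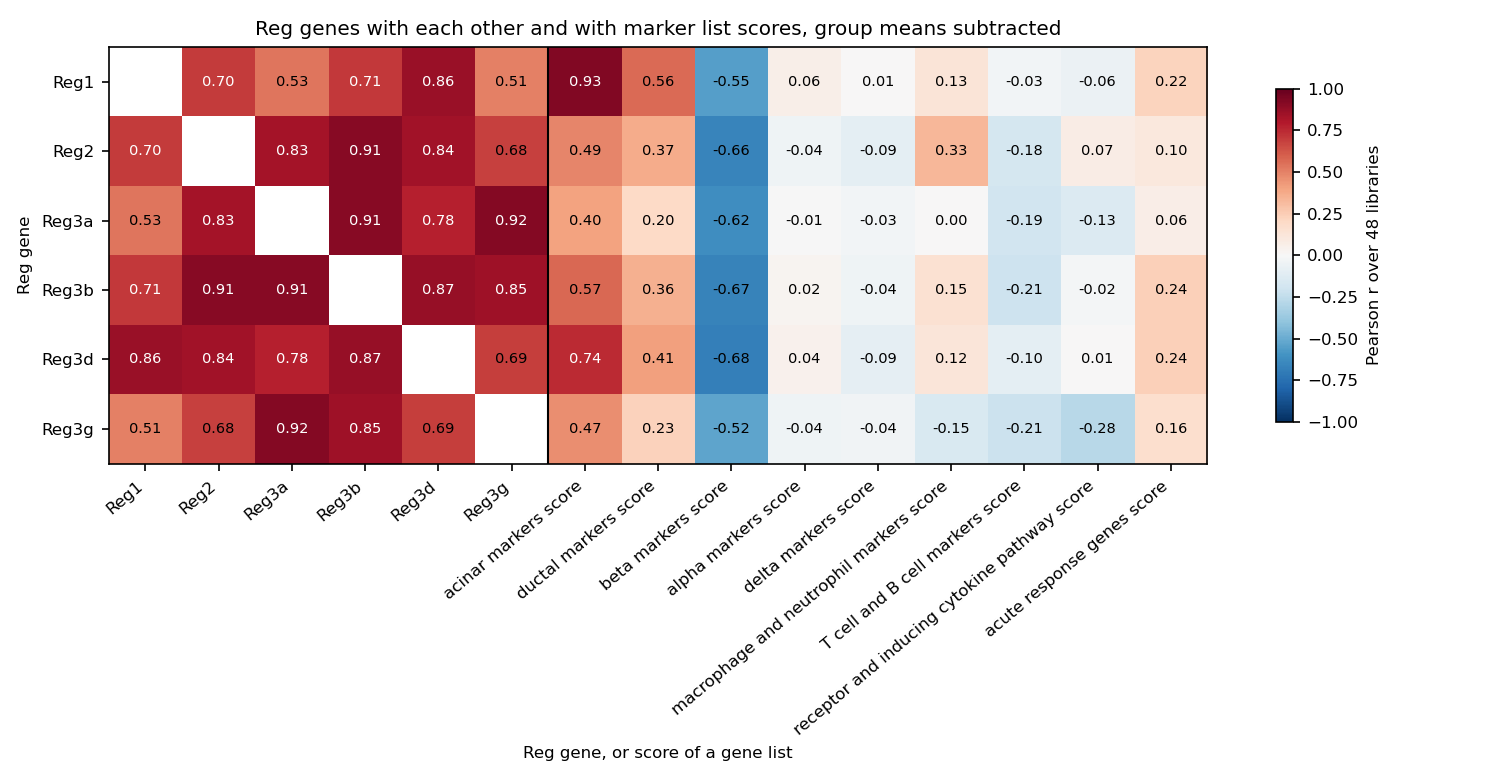
Pearson r over 48 islet libraries between the Reg genes (left block) and between each Reg gene and the mean log2 level of a gene list (right block), group means subtracted. Reg1 has its highest value with the acinar score, 0.93, while Reg3a is nearest to Reg3g, 0.92.

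The genes most like each member over the same libraries were searched among 11637 other genes with a mean of at least 1 FPKM. For Reg1 the nearest were Klk1, a tissue kallikrein (r = 0.95), Pnliprp1, a pancreatic lipase-related protein (0.94), and Prss2, a trypsinogen (0.94), all on the acinar list. For the other 5 members the nearest gene was Dmbt1, a secreted scavenger receptor protein. Its r was 0.90 for Reg3d, 0.74 for Reg3b, 0.69 for Reg2, 0.60 for Reg3a and 0.58 for Reg3g. Dmbt1 covered 202 to 367 FPKM in CD and 36.6 to 157 FPKM in HFD at week 12, and 103.2 to 227 and 19.3 to 57.2 FPKM at week 16. Next came Klk1 and Gp2, the major zymogen granule membrane glycoprotein, for Reg3d (0.82 and 0.82), and Cabp2 and Klk1 for Reg3b (0.68 and 0.65). Litaf and Cabp2 followed for Reg2 (0.65 and 0.61), Amy1 and Cabp2 for Reg3a (0.55 and 0.53), and Tmem97 and Amy1 for Reg3g (0.58 and 0.57). Of the 50 genes nearest to each member, 28 were acinar markers for Reg1, 26 for Reg3d, 23 for Reg3b, 17 for Reg2, 17 for Reg3g and 13 for Reg3a. In all, 45 genes exceeded r = 0.8 with Reg1 and 5 with Reg3d. For Reg2, Reg3a, Reg3b and Reg3g no gene outside the family did.

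Genes of the receptor and inducing cytokine pathway were followed as a fixed list of 19, of which 12 could be tested in each week. At week 8, 2 were lower in HFD, the kinase Jak1 (-0.31, limma adjusted p = 0.044) and Stat3 (-0.32, adjusted p = 0.012). At week 20 Il6st, the shared receptor chain gp130, was lower (-0.50, limma adjusted p = 0.011) and Osmr, the oncostatin M receptor, was higher (0.44, adjusted p = 0.024). None passed at weeks 4, 12, 16 and 24. Over all genes, 5.27% passed at week 8 and 4.74% at week 20. Over the 6 weeks 2 of 12 were higher and 3 lower in HFD, where 38.6% of all genes passed in either direction. The median was -0.0069 beside -0.0091 over all genes. The lowest and highest were Il6st at -0.30 (limma adjusted p = 0.00021) and Osmr at 0.22 (adjusted p = 0.00047). Extl3, the proposed Reg receptor, had a mean effect of 0.076 (SE 0.033, limma adjusted p = 0.063). The score of this list had r between -0.28 and 0.072 with the members.

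Of 13 acute response genes 6 could be tested by week. Nupr1, a stress protein of the injured pancreas, was higher in HFD at week 8 (1.18, limma adjusted p = 0.049) and at week 20 (0.96, adjusted p = 0.021), and Clu was lower at week 16 (-0.49, adjusted p = 0.0081). Their score had r between 0.064 and 0.24 with the Reg genes.

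Liver of the same mice served as the second tissue and was nearly without Reg transcripts. Reg1 was listed at 0 in 26 of 48 liver libraries, and Reg2, Reg3a, Reg3b, Reg3d and Reg3g at 0 in 38 to 45 and below 1 FPKM in all. Reg1 reached 1 FPKM in 4 liver libraries, at 7.86 FPKM in HFD211 (week 8), 2.82 in HFD616 (week 24), 2.41 in CD306 (week 12) and 1.17 in CD407 (week 16). The acinar markers summed to 348 FPKM in CD306, 233 in CD407, 202 in HFD616 and 210.4 in HFD211, beside 83.4 to 203.4 FPKM in the other 44 livers, where Amy1 (median 119 FPKM) made up most of the sum. In CD306, CD407 and HFD616, 18 to 20 of the 32 acinar markers were at 1 FPKM or more, and in HFD211 only 4 were. The islets of HFD211 had the lowest Reg1 and the lowest acinar sum of all islet libraries. No member passed the filter in liver, and none was tested there.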

How the data were processed

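Islet and liver RNA of 48 mice was sequenced after poly(A) selection on a BGISEQ-500. The FPKM values were deposited by the authors as a gene table over all 96 libraries, 1 column per sample. The submitters' processing notes name HISAT2 2.0.4, Bowtie2 2.2.5, RSEM 1.1.12, DESeq2 and the build GRCm38.p5, without saying which step made the table. Columns of the authors' own comparisons (log2 ratios, p-values and q-values) were not used. FPKM was rounded to 2 decimals and holds no counts, so the reads behind a value, and its counting error, are unknown. It is relative to the library, and the insulin genes hold most of the summed FPKM of an islet library.

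Samples were grouped by the tissue, diet and week in their labels. log2(FPKM + 1) was tested with limma 3.58.1 in R 4.3.3 (eBayes with trend and robust), HFD against CD at each week over genes that reached 1 FPKM in 4 or more of the 8 islet libraries, and over the 6 weeks in a fit of 12 groups (4 or more of 48 libraries). p-values were adjusted by Benjamini-Hochberg over all genes tested, with a threshold of 0.05. The fits were tested on simulated data. Mice are the replicates, and nothing in the labels says whether islets were prepared on different days. Fold changes of low genes are understated by the pseudocount of 1. Correlations used two-sided permutation tests with 100000 resamples (scipy 1.17.1, numpy 2.4.6). Coding sequences were aligned with Biopython 1.88. The median log2 fold change of all genes lay between -0.11 and 0.077 over the weeks, between -0.22 and 0.088 when libraries were rescaled to the same sum, and at up to 0.19 (week 12) when insulin was left out of the total.

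The members, gene lists and tests were chosen with earlier results of these data known. Named genes are the members, listed genes that passed a test or hold an extreme of their list, and the 3 genes nearest to each member. Alternatives were the pseudocount, the filter, 3 scalings, 1 fit over all groups, the variance model, the acinar score as a covariate and leaving out each mouse. DESeq2 and edgeR were not run, since there are no counts. Protein sequences were not used here.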

Additional observations from a re-analysis of the deposited data

Results flagged for a closer look

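The highest or lowest of 4 mice stood far from the other 3, by Dixon's ratio, in 23 of 76 groups of member values examined, where chance alone flags about 1 in 20 groups of normally distributed values. FPKM is skewed, so that rate does not hold here. Liver groups, mostly near 0, were examined only if a mouse reached 1 FPKM. Every liver group so chosen was flagged, which largely follows from the choice, and these flags count among the 23. The groups share mice, so the flags are not separate events.

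Mouse CD304 (CD, week 12) had the highest islet value of its group for 6 members, with 2232 FPKM of Reg1, 350.1 of Reg2, 22.6 of Reg3a, 330 of Reg3b, 45.6 of Reg3d and 17.0 of Reg3g. The others of its group had at most 1216, 86.8, 1.56, 48.3, 21.8 and 0.710 FPKM. Its acinar marker sum, 192051 FPKM, was also the highest of all islets. Mouse HFD614 (HFD, week 24) stood apart with 193 FPKM of Reg3a, 637 of Reg3b, 108 of Reg3d and 32.4 of Reg3g, and its acinar sum was inside its group.

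Other high islet values were 96.3 FPKM of Reg2 in HFD212 (HFD, week 8), 5.56 of Reg3a and 6.46 of Reg3g in CD502 (CD, week 20), and 13.0 of Reg3g in HFD315 (HFD, week 12). For Reg3g, 0.440 FPKM in HFD118 (HFD, week 4) and 1.76 in CD208 (CD, week 8) were also apart from the rest, at levels near 0. Low values were 176 FPKM of Reg1 in HFD316 (HFD, week 12), and 2.38 of Reg3b and 1.98 of Reg3d in HFD414 (HFD, week 16). Both of these mice had the lowest acinar marker sum of their group.

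In liver, Reg1 stood apart at 7.86 FPKM in HFD211 (week 8), 2.82 in HFD616 (week 24), 2.41 in CD306 (week 12) and 1.17 in CD407 (week 16), while no other mouse of those groups exceeded 0.400 FPKM.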

How the results depend on the processing

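No member passed the weekly test under the planned fit, but the count at weeks 12 and 16 depended on the variance model, the scaling, the filter and the groups fitted together. At week 12 it was 1 with libraries rescaled to TPM, 1 with all 12 groups in one fit and 2 without trend and robust variances. At week 16 it was 3 with no filter, 1 with TPM, 1 with median ratio scaling, 3 with insulin left out, 2 with all 12 groups in one fit and 4 without trend and robust variances. The share of all genes passing was counted for the planned fits only. Member counts under the alternatives, with or without a mouse left out, therefore cannot be set against such a share. With the acinar score as a covariate the count was 0 for the mean HFD effect and 2 for change over the weeks in CD. In that fit the log2 fold change turned sign for Reg2 (0.27) and Reg3b (1.05) at week 12, for Reg1 (0.098) at week 16, for Reg2 (-0.59), Reg3a (-0.54), Reg3b (-1.05), Reg3d (-0.32) and Reg3g (-0.61) at week 20, for Reg1 (0.036) at week 24, and for the mean effect of Reg2 (0.14), Reg3b (0.087) and Reg3d (0.099). Reg3b at week 24 was -0.060 with median ratio scaling. Leaving out each mouse in turn gave counts of 0 to 2 at week 8, 0 to 1 at week 20, 0 to 2 for diet by week and 2 to 5 over the weeks in HFD. Log2 fold changes that turned sign then ranged from -0.020 to 1.05 (Reg1) and -0.19 to 1.68 (Reg2) at week 8, -0.015 to 1.26 (Reg3a) and -0.012 to 1.49 (Reg3g) at week 12, and -0.75 to 1.15 (Reg2), -1.11 to 0.85 (Reg3b), -0.44 to 0.68 (Reg3d) and -0.27 to 1.28 (Reg3g) at week 24. The cause was not tested. Over the alternatives that kept all mice, 310 member values kept their direction and side of the threshold, 20 gained a call, 5 lost one and 13 turned sign. All 6 members kept an adjusted p under 0.05 against the acinar score without subtraction of group means, with 5 enzymes alone and with a pseudocount of 0.1. No paired analysis was possible because the replicate numbers are mouse numbers, shared only between islets and liver, and the diets compared share no mouse.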
